A study of Mus musculus with 12 samples.

Results

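Cytosolic ribosomal protein genes encode the proteins of the large subunit (Rpl), the small subunit (Rps) and the acidic stalk (Rplp) of the ribosome that translates nuclear mRNAs. Members were the genes with a name of that form to which the authors assigned an H2A.Z peak whose middle lay within 1000 bp of a transcription start site (TSS), here called a promoter peak. By this rule 72 genes were members, of 14993 genes with a promoter peak in any list: 42 large subunit genes, 27 small subunit genes and 3 stalk genes. Of 83 protein-coding RefSeq genes with such names, 71 were members and 12 were not, and 1 member is not listed as protein-coding there. Most members are subunits of the standard ribosome, and 4 (Rpl7l1, Rpl22l1, Rps27l and Rps4l) are relatives of a standard subunit gene.

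The nucleus accumbens, a part of the mouse striatum that takes part in reward, was profiled by chromatin immunoprecipitation and sequencing for the histone variant H2A.Z. The 4 groups of 3 samples combine a first treatment with a second: SS had saline both times, CC had cocaine both times, SC had saline first and cocaine second, and CS the reverse. The labels tie SC to acute exposure, CS to withdrawal and CC to challenge. The labels state no dose, interval, strain, age or sex, nor whether animals were pooled. Each group is represented by 1 peak list with no values per sample, so no value has a replicate error and no test between groups was possible. Intervals are 95% exact binomial intervals and cover the counting of genes only. The SS list held 24655 peaks, SC 23170, CS 6417 and CC 4827, and their median peak widths were 734, 727, 110 and 107 bp. The highest listed q-value was 0.000544 in SS and 0.000572 in SC against 0.0510 in CS and 0.0625 in CC. The part of these differences between lists in each count below was not tested. Promoter peaks of medium spiny neuron markers, the main neurons of this tissue, were present at 9 of 10 genes in SS and 7 of 10 in SC. They were at 0 of 10 in CS and 0 of 10 in CC. Over all protein-coding genes the share with a promoter peak was 53.4% for SS and 50.9% for SC, but 17.2% for CS and 13.5% for CC. Astrocyte markers had one at 1 of 4 genes in both SS and SC, and at 0 of 4 in both CS and CC. Oligodendrocyte markers had one at 2 of 4 genes in both SS and SC, while CS held 0 of these 4 and CC 1. Whether neuron markers differ from other genes was not tested.

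Ribosomal protein genes are among the most highly transcribed genes of any cell. Their transcripts start with a cytosine followed by a run of pyrimidines, the terminal oligopyrimidine tract, through which mTOR signalling controls their translation. H2A.Z typically occupies the nucleosomes that flank the nucleosome-depleted TSS of active genes. A peak upstream of the TSS and a peak downstream of it therefore describe different nucleosomes.

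The sequence around the TSS is shown for 7 of the 8 members that had a promoter peak in all 4 lists, for Rpl14, which had one of the strongest SS peaks, and for Rpl27a, which had a long pyrimidine run. The sequences are from RefSeq, build GRCm38.p6, and run from 60 bases before the RefSeq TSS to its twentieth transcribed base on the strand of the gene. Capitals mark the longest run of at least 6 pyrimidines that starts with C within 10 bases of the TSS. No capitals mean that no such run was found in that window.
Rplp2 (chr7:141447591-141447670, + strand): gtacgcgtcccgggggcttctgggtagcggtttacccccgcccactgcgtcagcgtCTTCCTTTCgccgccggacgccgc
Rps12 (chr10:23787190-23787269, - strand): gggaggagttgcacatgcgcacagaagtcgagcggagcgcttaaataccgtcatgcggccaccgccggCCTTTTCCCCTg
Rps9 (chr7:3703981-3704060, + strand): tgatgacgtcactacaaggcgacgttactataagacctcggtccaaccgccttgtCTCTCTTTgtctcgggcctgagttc
Rpl23 (chr11:97782420-97782499, - strand): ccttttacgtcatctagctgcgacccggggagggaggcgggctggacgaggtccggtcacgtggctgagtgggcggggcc
Rpl37 (chr15:5116553-5116632, + strand): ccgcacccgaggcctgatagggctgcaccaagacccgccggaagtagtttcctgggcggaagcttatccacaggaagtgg
Rpl37a (chr1:72711200-72711279, + strand): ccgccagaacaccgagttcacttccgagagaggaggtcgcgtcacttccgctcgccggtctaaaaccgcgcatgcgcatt
Rpl7l1 (chr17:46782637-46782716, - strand): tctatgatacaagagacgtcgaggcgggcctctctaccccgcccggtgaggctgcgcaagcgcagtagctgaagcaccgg
Rpl14 (chr9:120571457-120571536, + strand): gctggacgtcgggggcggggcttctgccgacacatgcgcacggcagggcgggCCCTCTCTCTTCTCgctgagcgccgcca
Rpl27a (chr7:109519135-109519214, + strand): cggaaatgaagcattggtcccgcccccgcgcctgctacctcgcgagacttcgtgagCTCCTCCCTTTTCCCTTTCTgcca

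Of the 51 members with a RefSeq promoter sequence, 27 (52.9%, interval 38.5 to 67.1%) had such a pyrimidine run, against 19.2% of 9348 protein-coding genes with an SS promoter peak. A run of at least 5 pyrimidines that began with C at the annotated first base was found at 10 members (19.6%) and at 2.21% of those genes. The letters CTCTTT on the gene strand stood in the 300-base promoter (250 bases before to 50 after the TSS) of 21 members (41.2%) and of 9.46% of the same genes. On either strand, the ETS family motif CCGGAAG was present at 21 members (41.2%, against 16.7%) and the YY1 motif AAGATGG at 8 (15.7%, against 6.61%). The GC box GGGCGG was present at 34 (66.7%, against 69.0%), and the TATA box TATAAA at 4 (7.84%, against 6.27%). The pyrimidine and ETS letters were thus more frequent at members than at protein-coding genes with an SS promoter peak, while the shares with a GC box lay close together. Members with an SS promoter peak were not removed from that comparison set. The annotated TSS of 35 of the 51 lay within 50 bp of the deposited TSS, and that of Rplp2 281 bp from it. Median GC content was 58.0% at members and 62.3% at genes with an SS promoter peak, and the median CpG ratio (observed over expected) was 0.868 and 0.778.

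In the full lists, promoter peaks of ribosomal protein genes were common in SS and SC and less common in CS and CC. With lists cut to equal length this order was reversed, at 8, 9, 22 and 15 members in SS, SC, CS and CC. That cut kept the 4827 peaks of highest fold enrichment, so SS and SC kept only strong peaks and CC stayed whole. Shares over all protein-coding genes were not computed for the cut lists. By the authors' gene names, the full SS list held a promoter peak at 63 members, SC at 65, CS at 25 and CC at 15. Of the 83 RefSeq genes, SS thus marked 62 (74.7%, interval 64.0 to 83.6%), SC 64 (77.1%, 66.6 to 85.6%), CS 25 (30.1%, 20.5 to 41.2%) and CC 15 (18.1%, 10.5 to 28.0%). The shares over all 21900 protein-coding genes were 53.4%, 50.9%, 17.2% and 13.5%. Large subunit genes were present at 34, 37, 14 and 9 of 49 and small subunit genes at 25, 24, 10 and 4 of 31. All 3 stalk genes were present in SS and SC, 1 of them (Rplp2) in CS, and Rplp1 and Rplp2 in CC.

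Of the 63 members of SS, 57 had a promoter peak in SC (90.5%, interval 80.4 to 96.4%), where the share over all SS promoter genes was 88.2%. In CS it was 23 (36.5%, 24.7 to 49.6%), against 28.8% of all, and in CC 14 (22.2%, 12.7 to 34.5%), against 22.7%. Each of these 3 intervals covered the share over all genes, so the counts by gene name do not set members apart from all SS promoter genes. By an overlap of at least 1 bp, 62 of 63 SS members were held in SC (98.4%, 91.5 to 100%), against 90.6% of all. Of the 65 SC members 57 were also in SS (87.7%), against 92.6% of all SC promoter genes. Of the 25 CS members 23 were also in SS, 23 in SC and 8 in CC, where 90.6%, 88.1% and 41.2% of all CS promoter genes were. Of the 15 CC members 14 were in SS, 15 in SC and 8 in CS, where the shares of all CC promoter genes were 90.9%, 88.8% and 52.4%.

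**Figure D1:**
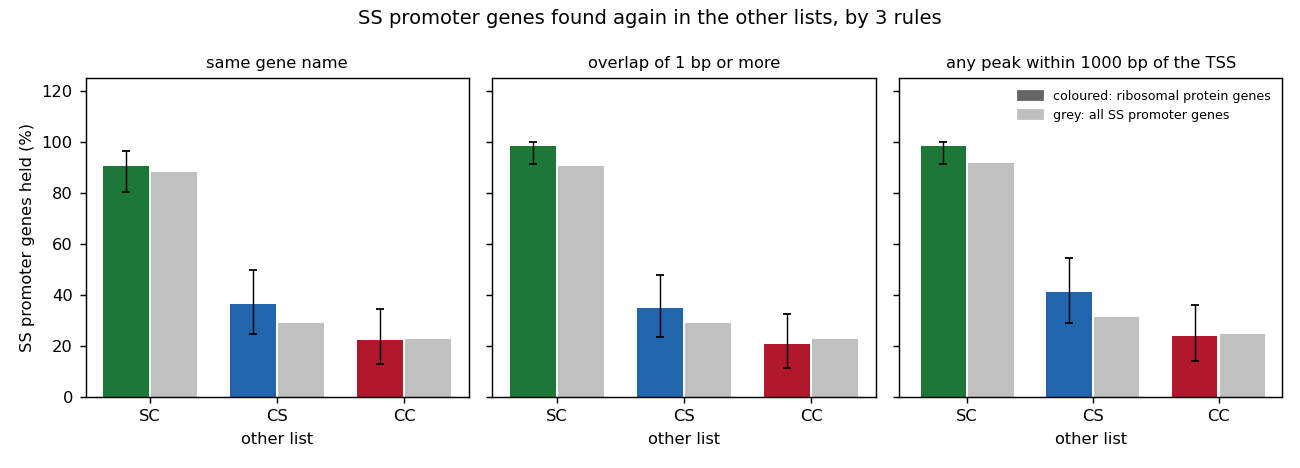
Percent of SS promoter genes found again in SC, CS and CC by 3 rules: the same gene name, an overlap of the peak by at least 1 bp, or any peak within 1000 bp of the TSS. Coloured bars are the 63 ribosomal protein genes with 95% exact binomial intervals and grey bars all 13585 SS promoter genes. The intervals for CS and CC cover the grey bars under each rule, and that for SC lies above the grey bar under the overlap rule.

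The most frequent pattern was presence in SS and SC alone, found for 29 members (40.3%, against 46.2% of all 14993 genes). It included the stalk protein gene Rplp0, Rps6, whose product is the S6 kinase substrate, and Rps27a, which encodes a fusion of ubiquitin and a small subunit protein. Their SS fold enrichments ran from 2.90 to 10.8, with a median of 4.52. A peak in SS, SC and CS was found for 14 members (19.4%, against 14.2% of all genes), with a median SS fold enrichment of 5.44. They included the large subunit genes Rpl14, Rpl21, Rpl29 and Rpl8 and the small subunit genes Rps16, Rps20, Rps24 and Rps7. A peak in SS, SC and CC was found for 6 (8.33%, against 8.95%): Rpl11, Rpl27a, Rpl32, Rplp1, Rps15a and Rps18. In SC alone stood Rpl10, Rpl22l1, Rpl23a, Rpl35a, Rpl4 and Rps13 (8.33%, against 5.46%). In SS alone stood Rpl18, Rpl34, Rpl7a, Rps10 and Rps15 (6.94%, against 8.72%), and in CS alone Rpl7 (1.39%, against 1.49%). Rpl15 was in SC and CC, Rpl35 in SC and CS, and Rpl24 in SS and CS.

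Many of the members present in 1 list alone had peaks of another name in the other lists. The authors assigned each peak to 1 gene, and several ribosomal protein genes share a promoter with a neighbour. Of the 9 members with no SS promoter peak of their name, 7 had an SS peak of another name with its middle within 1000 bp of their TSS. Rpl4 (SC fold enrichment 5.72) had an SS peak named for Zwilch (5.61). Rps13 (5.29 in SC) had one named for Gm44777 (4.84), Rpl35a (6.46) one for Iqcg (4.35), and Rpl22l1 (5.15) one for Gm32950 (5.03). Rpl15 had an SS peak named for Nkiras1 (6.19), Rpl35 one for Arpc5l (3.50), and Rpl7 one for Rdh10 (7.43).

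The same held in the other direction. Of the 7 members with no SC peak of their name, 6 had one under another name: Rpl18 under Sphk2 (4.15), Rpl24 under Gm28037 (5.72), Rpl34 under Gm42997 (7.41), Rpl7a under Med22 (4.55), Rps10 under Gm15420 (7.32) and Rpl7 under Rdh10 (7.75). When any peak near the TSS counted, a rule added after the data were seen, 70 members had a peak in SS and 71 in SC, and the numbers were 31 in CS and 18 in CC. In CS this added 6 members: Rpl4, Rpl7a and Rps13 (6.02 each), Rpl22l1 and Rps3a1 (4.68 each) and Rpl34 (4.62). By this rule 62 of the 63 SS members were held in SC (98.4%, against 91.7% of all SS promoter genes). In CS it was 26 (41.3%, against 31.4%) and in CC 15 (23.8%, against 24.8%). The counts of 70, 71, 31 and 18 cover members alone, which were chosen for a promoter peak in some list. When genes were taken by name alone, 63 with a matching name had a RefSeq TSS, 51 of them members. A gene with several took the TSS nearest to that of its listed promoter peak, members and other genes alike. Any peak lay near the RefSeq TSS at 55 of the 63 genes in SS (87.3%, against 59% of all protein-coding genes with such a TSS). For SC it was 56 (88.9%, against 56.6%), for CS 25 (39.7%, against 20.1%) and for CC 16 (25.4%, against 15.5%). Which gene of a shared promoter carries the H2A.Z cannot be told apart from these lists.

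Left apart after this were 3 members. Rps15, a small subunit gene, had a weak SS peak (fold enrichment 3.29, chr10:80291772-80292657) and no overlapping SC peak. Rpl10 had a peak in SC alone (4.64, chrX:74269502-74270671), which lay upstream of the TSS, and so did Rpl23a (3.25, chr11:78183682-78184054). All these values stood low among promoter genes of their list, at percentiles 5.69, 24.5 and 5.56.

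The 12 protein-coding genes with a matching name and no promoter peak were Rpl10l, Rpl12, Rpl28, Rpl32l, Rpl39l, Rpl3l, Rpl9, Rps2, Rps25, Rps27, Rps28 and Rps4x. At 5 of them an SS peak under a neighbour's name lay within 1000 bp of the RefSeq TSS: Lrsam1 at Rpl12 (5.58), Lias at Rpl9 (5.42), Trappc4 at Rps25 (5.22), Rab13 at Rps27 (4.55) and Ndufa7 at Rps28 (3.58). The 7 with none in SS were the standard subunit genes Rps2, Rpl28 and the X-linked Rps4x, and the relatives Rpl10l, Rpl32l, Rpl39l and Rpl3l. Rps2 had an SC peak named for the small nucleolar RNA gene Snora78 (3.84).

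Of the subunit genes outside the name rule, Rpsa, which encodes a small subunit protein, had promoter peaks in SS (13.4) and SC (11.5). So did Rack1, a scaffold on the small subunit (5.32 and 6.32). Neither had one in CS or CC, and Fau, a fusion gene of a ubiquitin-like protein and a small subunit protein, had none in any list.

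H2A.Z peaks of ribosomal protein genes were of moderate strength within the saline list. The authors' fold enrichment, a ratio of peak signal to background, is used only to rank peaks within a list. In SS the members' median was 4.89, with quartiles of 3.97 and 5.58, beside 5.65 for all promoter genes, and the median member stood at percentile 36.3 of promoter genes. In SC the members' median was 5.57 beside 6.59, at percentile 38.7. In CS it was 4.68 beside 4.68 and in CC 5.08 beside 4.85, at percentiles 43.4 and 60.4. Small subunit genes had a median of 5.34 in SS (26 genes) and 6.35 in SC (25), and large subunit genes 4.67 (34) and 5.25 (37).

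A few members stood well above the rest in SS. The highest was 12.6 at Rpl14 (chr9:120570999-120572055) and at Rpl32 (12.6, chr6:115808285-115809335), both large subunit genes at percentile 98.4. High values were also found at the small subunit genes Rps3a1 (10.8), Rps6 (9.21) and Rps19 (9.21). These 5 genes were also strong in SC, at 13.9, 12.5, 12.8, 12.3 and 12.8. Rpl14 had a peak in CS (4.68) and Rpl32 in CC (4.71), and near the TSS of Rps3a1 lay a CS peak named for Gm37933 (4.68). Rps6 and Rps19 had no peak of any name near the TSS in CS or CC. The lowest in SS were the X-linked Rpl39 (2.90), Rpl19 (2.96), Rpl7a (3.10), Rps15 (3.29) and the X-linked Rpl36a (3.39). The X-linked pair had 4.75 and 5.63 in SC.

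Members' peaks were wide in SS and SC and narrow in CS and CC, as in the lists as a whole. The median width of a member's strongest promoter peak was 927 bp in SS (quartiles 566 and 1151), 915 bp in SC, 107 bp in CS and 105 bp in CC. Over all promoter genes it was 1005, 942, 112 and 109 bp. The widest SS peak was that of Rpl30 (1605 bp), and Rps27a also had a wide one (1507 bp). The narrowest were those of Rpl7a (321 bp), which is the shortest width in the SS list, Rpl27 (333 bp) and Rplp0 (333 bp). In CS, 4 of 31 member peaks had the shortest width of the list, 69 bp (12.9%, against 11.8% of all CS promoter peaks). In CC 2 of 17, at Rpl11 and Rpl23, had the shortest width of 67 bp (11.8%, against 11.9% of all CC promoter peaks). No member peak in CS or CC was as wide as the narrowest in SS, and the widest were 281 bp at Rps9 in CS and 317 bp at Rpl7l1 in CC. Members held in CS had wider SS peaks (median 1100 bp, 23 genes) than those not held (642 bp, 40 genes). Over all SS promoter genes these medians were 1137 and 933 bp.

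**Figure D2:**
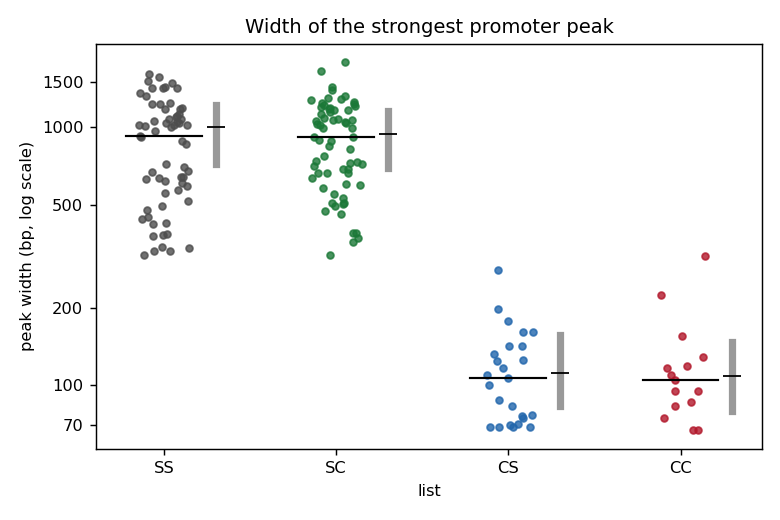
Width of the strongest promoter peak of each ribosomal protein gene, in bp on a log axis, by list. Each point is 1 gene, the black line is the members' median, and the grey bar with its tick gives the quartiles and median of all promoter genes; members lie between 321 and 1605 bp in SS and between 69 and 281 bp in CS.

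The peaks of ribosomal protein genes lay further upstream than those of promoter genes in general. Peak middles lay upstream of the TSS at 40 of 63 members in SS (63.5%, interval 50.4 to 75.3%) and at 39.6% of all SS promoter genes. In SC it was 42 of 65 (64.6%, 51.8 to 76.1%) beside 40.9%. In CS it was 23 of 25 (92.0%, 74.0 to 99.0%) beside 48.0%, and in CC 12 of 15 (80%, 51.9 to 95.7%) beside 43.2%. The median signed distance of members was -33 bp in SS, -62 bp in SC, -292 bp in CS and -283 bp in CC, where a minus means upstream, and that of all promoter genes 27, 23, 19 and 51 bp. The lists can use different transcripts of a gene, as they did at 20 members. Measured from the RefSeq TSS instead, middles were upstream at 26 of 44 members in SS, 29 of 45 in SC, 13 of 17 in CS and 11 of 12 in CC. The shares were 59.1%, 64.4%, 76.5% and 91.7%, beside 32.3%, 34.0%, 49.0% and 45.1% of all promoter genes.

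**Figure D3:**
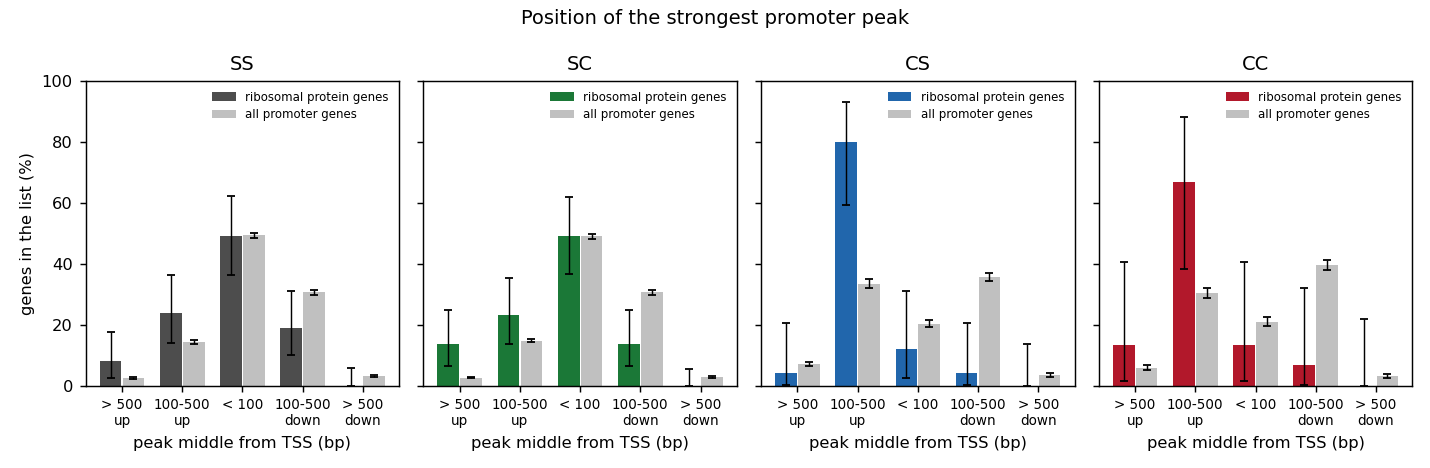
Share of genes by the distance of the middle of the strongest promoter peak from the TSS, in 5 classes, for ribosomal protein genes (coloured) and all promoter genes (grey), with 95% exact binomial intervals. The class 100 to 500 bp upstream holds 80% of members in CS and 66.7% in CC, against 33.5% and 30.4% of all promoter genes.

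In CS and CC the members' peaks gathered in a band upstream. Of 25 CS members, 20 had the middle of the strongest peak 100 to 500 bp upstream (80%, interval 59.3 to 93.2%), and 1 had it 100 to 500 bp downstream. Over all CS promoter genes these shares were 33.5% and 35.7%, so that both sides were used about equally. Of 15 CC members 10 lay 100 to 500 bp upstream (66.7%, 38.4 to 88.2%) and 1 downstream, beside 30.4% and 39.5%. Counting all promoter peaks of a gene, 18 of 25 CS members (72.0%) had peaks that ended upstream of the TSS and none elsewhere, beside 38.9% of all genes. Rpl35 had a downstream peak alone, and Rpl37a and Rpl7l1 had peaks on both sides. Rpl23, Rplp2, Rps27l and Rps7 had a peak across the TSS (16%, beside 13.8% of all genes). Each of these 4 peaks crossed a TSS that the gene's SS peak did not use. Their middles lay 142, 488, 122 and 200 bp downstream of the TSS used in SS. The strongest CS peaks of Rpl23 and Rps7 thus counted as upstream only from the TSS used in CS. In CC 11 of 15 members (73.3%, beside 35.3%) had upstream peaks alone, and Rpl11, Rpl30 and Rplp2 downstream peaks alone. Mitochondrial ribosomal protein genes, whose products form the separate ribosome of mitochondria, had upstream peaks alone at 12 of 26 genes in CS (46.2%) and at 10 of 16 in CC (62.5%).

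In SS most members had a peak across the TSS: 51 of 63 (81.0%, interval 69.1 to 89.8%), beside 90.4% of all promoter genes and 93.0% of 57 mitochondrial ribosomal protein genes. A further 8 members had an SS peak upstream alone (12.7%, 5.65 to 23.5%), beside 3.17% of all promoter genes and 1.75% of the mitochondrial group. These were Rpl13a, Rpl3, Rpl36a, Rpl39, Rpl41, Rplp1, Rps12 and Rps16. Of the 8, 7 were upstream alone in SC too, and Rpl39 had a wider SC peak across the TSS (1271 bp against 422 bp in SS). The SS peak of Rpl13a, which covers chr7:45129117-45129709, reached from -948 to -356 bp, and its SC peak from -1049 to -358 bp. At Rpl3, the gene of the uL3 protein near the peptidyl transferase centre, the SS peak reached from -902 to -266 bp (chr15:80083619-80084255). At Rplp1 it reached from -1038 to -176 bp (chr9:61914718-61915580).

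Peaks downstream alone were fewer, at 4 members in SS (6.35%, beside 5.29% of all promoter genes), such as Rpl27 and Rps3a1. Rpl27 had the SS peak from 31 to 364 bp downstream and the SC peak from 25 to 415 bp. Rps3a1 had an SS peak of 608 bp starting 37 bp downstream and an SC peak of 1228 bp across the TSS. Some members had 2 separate promoter peaks. In SS this held for 6 members (9.52%, beside 11.7% of all promoter genes), such as Rpl13, Rpl27a and Rpl37, and in SC for 8 (12.3%, beside 11.9%), such as Rpl31, Rpl37 and Rps3. At Rpl37 the SS peaks had their middles at -586 bp (fold enrichment 5.03) and 166 bp (5.32), and the SC peaks at -414 bp (5.38) and 291 bp (3.84).

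**Figure D4:**
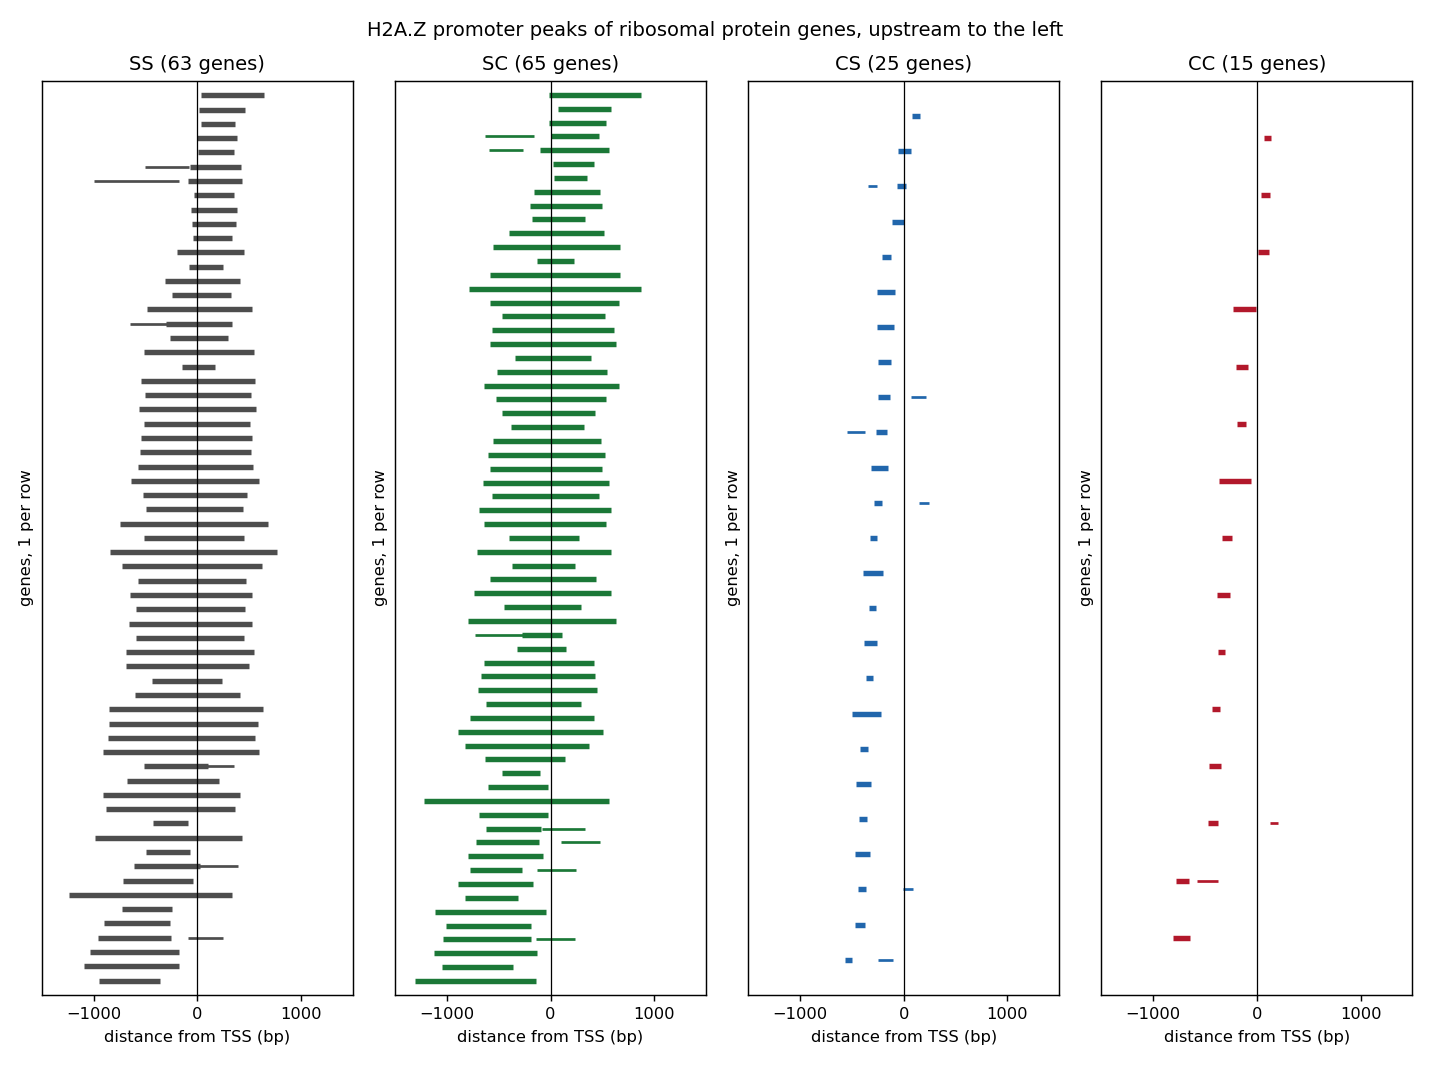
Extent of every promoter peak of the ribosomal protein genes relative to the TSS (bp, upstream to the left), 1 row per gene and 1 panel per list, ordered by the middle of the strongest peak. Thick bars are the strongest peak of a gene and thin bars its other peaks. In SS 51 of 63 genes have a peak across the TSS, against 90.4% of all promoter genes. In CC 0 of 15 have one (interval 0 to 21.8%), against 14.6% of all promoter genes.

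The narrow CS and CC peaks lay on the wide SS peaks, at members as at promoter genes in general. All 28 CS peaks of members with an SS peak overlapped it, and 26 lay wholly inside, covering a median of 9.33% of the SS width (1.40 to 29.3%). Over all promoter genes 97.4% of CS peaks overlapped an SS peak of the gene, 94.3% lay inside, and the median cover was 10%. All 16 such CC peaks lay inside the SS peak, covering a median of 11.4%, and over all promoter genes 96.9% overlapped and 95% lay inside, with a median of 9.72%. The members' middles were shifted from the SS middle by a median of -142 bp in CS, with 19 of 28 shifted upstream. In CC the median shift was -39.5 bp, with 9 of 16 upstream. Shifts were computed for members alone, so whether all promoter genes differ from them was not tested. The 64 SC peaks of members with an SS peak, whether or not these had a CS or CC peak, covered a median of 95% of the SS width. Their median shift was -11.8 bp.

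Promoter peaks in all 4 lists were found at 8 members, 12.7% of the SS members or 11.1% of all members, beside 11.7% of all SS promoter genes. They were Rpl23, Rpl30, Rpl37, Rpl37a, Rpl7l1, Rplp2, Rps12 and Rps9, and their SS fold enrichments lay between 4.89 and 6.36. Rpl7l1, a paralog of Rpl7, had the strongest member peak of both CS and CC: SS gave 6.36, SC 6.79, CS 6.69 and CC 6.53. Its CS and CC peaks stood at percentiles 98.7 and 97.4 of promoter genes in those lists. The SS peak covered chr17:46782292-46783532 and the CC peak chr17:46782707-46783024, which contains the stronger of its CS peaks, at chr17:46782790-46782900.

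The CS peak of Rpl7l1 and the CC peak of Rplp2 lay wholly inside a RefSeq promoter sequence, and they are shown as examples of the sequence under a narrow peak. The Rpl7l1 peak runs from -244 to -134 bases relative to the RefSeq TSS and the Rplp2 peak from -241 to -155 bases. The Rplp2 peak ends before the pyrimidine run of that gene shown above, but it lies downstream of the TSS that the CC list used. Neither holds any of the ETS, YY1, GC box or TATA letters. The lists do not say whether starts count from 0 or 1, so the outermost base can be off by 1.
Rpl7l1, CS peak (chr17:46782790-46782900, - strand): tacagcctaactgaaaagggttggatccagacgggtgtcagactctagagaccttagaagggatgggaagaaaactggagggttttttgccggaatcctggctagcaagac
Rplp2, CC peak (chr7:141447410-141447496, + strand): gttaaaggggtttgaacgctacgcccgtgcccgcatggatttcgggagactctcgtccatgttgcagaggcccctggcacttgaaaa
GC content was 49.5% under the Rpl7l1 peak, which has 2 CpG sites, and 56.3% under the Rplp2 peak, which has 6.

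Rps9, a small subunit gene, had fold enrichments of 5.64, 6.14, 6.02 and 5.08, given here and for the next genes in the order SS, SC, CS, CC. Its CS peak (chr7:3703496-3703777) had its middle at -357 bp and overlapped its CC peak (chr7:3703609-3703738), at -320 bp. Rpl23, a large subunit gene, had 5.51, 6.96, 5.35 and 4.71. It carried a pair of CS peaks, at -299 bp and, from a second TSS, at -19 bp, and a CC peak at -338 bp (chr11:97782742-97782809). Rpl37a had 5.06, 6.52, 5.35 and 4.35, with CS peaks at -248 bp and, from a second TSS, 198 bp, and a CC peak at -283 bp. In these 3 genes the CC peak overlapped an upstream CS peak.

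Rpl37 had 5.32, 5.38, 4.68 and 5.44, with peak middles on both sides of the TSS in SS, SC and CC. The CC peaks were at -418 and 163 bp, and the lone CS peak at -292 bp. Rps12 had 4.89, 5.95, 3.89 and 5.72, upstream of the TSS in every list, with middles at -635, -628, -419 and -725 bp. Rpl30 had 4.91, 4.72, 4.45 and 4.50, with the CS peak at -233 bp and the CC peak at 64 bp from a second TSS. Rplp2 had 5.33, 6.37, 4.02 and 3.94. Its CS peak stood at chr7:141447792-141447924 and its CC peak at chr7:141447410-141447496. In these 4 of 8 genes (50%) the CS and CC peaks did not overlap, beside 41.8% of the 1586 genes in all 4 lists.

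After Rpl7l1 the strongest member peaks of CS were at Rps9 (6.02), Rpl7 (5.68, chr1:16104824-16104931), Rpl37a, Rpl23 and Rps27l (5.32, at -401 bp). In CC they were at Rpl11 (6.38, chr4:136053260-136053327), Rps12 (5.72), Rpl37 (5.44) and Rplp1 (5.34, at -714 bp). Rpl11, whose product binds the p53 regulator Mdm2 in nucleolar stress, was the strongest of the downstream CC peaks, with its middle 100 bp downstream. Its SS and SC peaks (4.77 and 5.38) ran across the TSS.

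Peaks that passed a common limit of q were rare in CS and CC. With −log10 q of at least 5 in every list, members numbered 62 in SS, 65 in SC, 4 in CS (Rpl7, Rpl7l1, Rps27l and Rps9) and 3 in CC (Rpl11, Rpl7l1 and Rps12). At this limit 3 of 62 SS members were held in CS (4.84%, beside 4.37% of all SS promoter genes) and 3 in CC (4.84%, beside 3.57%). SS members had a median −log10 q of 19.4, SC members one of 31.9, CS members 2.99 and CC members 3.42, beside 28.7, 46.5, 3.31 and 3.37 over all promoter genes.

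Promoter peaks of genes that build, supply and regulate ribosomes were fewer in CS and CC than in SS and SC, as over all protein-coding genes, where the shares were 53.4%, 50.9%, 17.2% and 13.5%. Of 34 ribosome biogenesis genes, SS held a promoter peak at 26, SC at 24, CS at 12 and CC at 8. Those in all 4 lists were Npm1 (5.12, 6.97, 4.35 and 4.66 in the same order), the nucleolar protein nucleophosmin, the snoRNP protein gene Nop58, the RNA polymerase I subunit gene Polr1a, the small subunit assembly factor gene Ltv1 and Mdn1, a remodelling ATPase of the large subunit. Of 28 initiation factor genes the numbers were 23, 26, 9 and 4, with the cap-binding Eif4e (9.19, 10.4, 5.42 and 4.99) and Eif2s2 in all 4. Of 8 elongation genes they were 5, 5, 1 and 2. Of 12 genes that control ribosomal protein synthesis they were 10, 10, 4 and 2. Among these Mtor had a peak in SS (4.90), SC (6.82) and CS (5.58), and Larp1, which binds the pyrimidine tract, in SS (7.54), SC (7.67) and CC (4.96). Myc had one in all 4 (3.10, 4.81, 3.62 and 4.72). Of 78 mitochondrial ribosomal protein genes 57, 64, 26 and 16 had one, and 24 of the 57 in SS were held in CS and 15 in CC, where 28.8% and 22.7% of all SS promoter genes were held.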

How the data were processed

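The members and gene lists were chosen with earlier results of these data known. Per the submitters' processing notes, cutadapt, HISAT, SAMtools and MACS2 were used with the mm10 build. The labels and notes name no versions, peak-calling settings, control library, treatment of reads that match several places, or pooling of samples. The authors deposited 1 annotated peak list per condition, with a fold enrichment (a ratio over background) and a linear q-value per peak, per the file headers. The deposited distance equalled the peak middle minus the TSS within 1 bp for every annotated peak. Sequencing depth and total H3 were not analysed here.

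Where a gene had several promoter peaks, the one with the highest fold enrichment was used. Positions are printed as deposited. Intervals are exact Clopper-Pearson intervals. Lists were compared by gene name, by overlap of at least 1 bp and by any peak near the TSS, with Python 3.11.15, pandas 2.3.3 and scipy 1.17.1. The counting was tested on simulated data. Alternatives were a promoter limit of 500 or 3000 bp, −log10 q of at least 5, lists of equal length (4827 peaks), standard subunits alone, other overlaps, other choices of peak and the RefSeq TSS. The rule of any peak near the TSS, the RefSeq TSS and the upstream share were added after the data were seen. The promoter peak nearest to the 1000 bp limit was that of Rpl10 in SC (-726 bp). Named genes follow a fixed rule, and the values of some genes are not reported here: members in all 4 lists, in 1 list or set of lists alone, with the strongest, weakest, widest and narrowest peaks, with several peaks, and pathway genes in all 4 lists. Genes named for peaks on 1 side of the TSS or under a neighbour's name were chosen after their values were seen. RefSeq promoter sequences matched 51 of 72 members, 35 of them within 50 bp of the deposited TSS. No column held samples outside the series (0 such columns).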

Additional observations from a re-analysis of the deposited data

How the results depend on the processing

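Of 104 alternative values computed, 88 stayed within the 95% interval of the reported share or median or, for counts, within 1.5 times of it. The other 16 did not, and no median distance changed sign. With lists cut to equal length, members numbered 8 in SS and 9 in SC, 8 of 8 (100%) SS members were held in SC (86.4% of all SS promoter genes) and 1 (12.5%) in CC (23.1% of all); those SS and SC lists hold only strong peaks. With −log10 q of at least 5, members numbered 4 in CS and 3 in CC, the shares of SS members held in CS and CC were 4.84% and 4.84%, the middles upstream in CS were 100% (4 of 4), and the median width in CC was 156 bp (3 genes). The share held in SC was 98.4% with an overlap of at least 1 bp, with an overlap of at least 50% of the shorter peak, and with any peak near the TSS, since the first rule depends on gene names. With the overlap of at least 1 bp the members' interval was 91.5 to 100%, above the 90.6% of all SS promoter genes. Among the 8 members in all 4 lists, SS peaks had a median width of 1071 bp, SC peaks one of 1122 bp and a median distance of -145 bp; the cause was not tested. The upstream share of middles exceeded that of all promoter genes for the deposited and the RefSeq TSS in each list. No paired analysis was possible because the lists hold no values per sample, and for the same reason no replicate could be left out. Precision is limited by the 25 CS and 15 CC members.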

Other observations

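In the CS and CC lists many peaks carried exactly the same fold enrichment. Of 31 member peaks in CS, 5 had the fold enrichment 4.35, and 20 distinct values occurred. Of 17 in CC, 5 had 5.08, and 12 distinct values occurred. In SS 66 distinct values occurred among 69 member peaks and in SC 73 among 73. Over all promoter peaks, distinct values made up 71.8% of peaks in SS and 84.5% in SC, and 19.7% in CS and 23.3% in CC, where 431 of 5101 CS peaks shared the value 4.35. The ranks of CS and CC peaks by fold enrichment therefore contain many ties.

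When the SS promoter genes were ranked by fold enrichment and split into 5 groups of one size, from weak to strong, the members numbered 18, 19, 16, 6 and 4. Of these 3, 6, 9, 3 and 2 had a CS promoter peak, and 0, 6, 7, 0 and 1 a CC promoter peak. Over all genes the shares in CS were 10.6%, 31.9%, 44.6%, 26.4% and 30.7%, and in CC 7.40%, 25.1%, 34.9%, 21.1% and 25%. Most members thus stood in the 3 weaker groups, and the 2 stronger groups held too few for a share to be read.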
